A study of Mus musculus with 6 samples.

Results

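The genes described here are 28 lysosomal genes and Stat3, 29 members in all, taken from a list of proteases, glycosidases, lipid hydrolases, membrane proteins and transcription factors. Of these, 28 were measured among the 18193 genes that had a probe set naming 1 gene, and all 28 were bright enough to be tested; Cd63 was not analysed here. The question was whether these genes differed between Elf5 knockout (KO) and wild-type mammary gland. Total RNA of whole mammary glands, from 3 mice of each genotype, was hybridised to 6 one-colour Affymetrix arrays, 1 per animal. The sample titles number the animals of each genotype 1 to 3 as biological replicates. The labels place the glands at day 17 of pregnancy, the series design text names day 1 of lactation, and the stage is therefore not settled. The labels name no strain, age, Elf5 allele or Cre driver.

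Lysosomes are acidic organelles in which proteases, glycosidases and lipid hydrolases break down material delivered by endocytosis and autophagy. Their membrane carries heavily glycosylated proteins, ion channels and a proton pump, and TFEB, a basic helix-loop-helix factor, binds E-box motifs near many of their genes. Stat3 is the transcription factor that drives death of the secretory epithelium when lactation ends, a process in which cathepsins leave the lysosome. Elf5 is an ETS-family factor of luminal progenitors that is needed for alveolar development and milk production.

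Because TFEB recognises an E-box, the promoter stretches of the members that hold one are shown first. RefSeq windows of the GRCm38.p6 build, reaching from 250 bases before to 50 bases after each annotated start, were found for 26 of the 29 members, and no window was found for Ctsb, Ctsh or Asah1. The 8-base palindrome TCACGTGA, searched on both strands, lay in windows of 4 of 26 members, a share of 15.4%, against 1.12% of all 27025 genes with a window. The 6-base E-box CACGTG, which lies inside TCACGTGA, was found in 9 of 26 members, or 34.6%, against 8.09% of all genes. The 9 were Ctsa, Ctsd, Ctsl, Gaa, Gla, Glb1, Lamp1, Lgmn and Mcoln1. A Stat-type motif, TTCNNNGAA, was found in the window of 1 of 26 members, Ctsc, a share of 3.85%, against 9.55% of all genes. The 4 members with the 8-base palindrome, Lamp1 with its 4 E-boxes and Ctsc are printed 5′ to 3′ on the gene's strand, with up to 26 bases on each side and none past the start, and with the matches in capitals; each match is a description of the letters, not of binding.
Ctsa: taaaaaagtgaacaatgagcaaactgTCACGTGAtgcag
Ctsd: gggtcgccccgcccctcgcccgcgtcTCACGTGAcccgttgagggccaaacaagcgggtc
Gla: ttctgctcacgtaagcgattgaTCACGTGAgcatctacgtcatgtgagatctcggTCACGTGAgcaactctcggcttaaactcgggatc
Mcoln1: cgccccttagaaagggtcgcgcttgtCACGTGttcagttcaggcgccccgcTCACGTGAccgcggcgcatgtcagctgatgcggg
Lamp1: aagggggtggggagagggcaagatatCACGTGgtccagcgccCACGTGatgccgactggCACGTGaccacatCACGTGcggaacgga
Ctsc: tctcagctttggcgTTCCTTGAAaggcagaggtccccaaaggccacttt

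The Ctsa stretch was chr2:164833734-164833772 on the plus strand, and the gene's window holds a further TCACGTGA after the start that is not printed. That of Ctsd was chr7:142387893-142387952 on the minus strand, where a second CACGTG lies farther upstream. Those of Gla and Mcoln1 were chrX:134601167-134601255 on the minus strand and chr8:3500422-3500506 on the plus strand. Lamp1 was read at chr8:13159074-13159160 and Ctsc at chr7:88277835-88277883, both on the plus strand.

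Elf5 itself read 12011, 8044 and 7244 in the wild-type arrays against 5616, 4361 and 3128 in the KO arrays, a log2 difference of -1.06 ± 0.32 (SE, n = 3 arrays per group; limma adjusted p = 0.109). A second Elf5 probe set read 8744, 8375 and 4285 in the wild-type arrays against 3838, 2739.6 and 640.2 in the KO arrays, a difference of -1.83. With both probe sets all 3 KO arrays lay below all wild-type arrays, and the labels and files do not place the probe sets relative to the deleted part. The Gapdh control probe sets at the 3′ and 5′ ends of the transcript, whose ratio is commonly read as a sign of RNA quality, had a 3′/5′ ratio of 1.09, 0.833 and 0.876 in wild type. The same ratio was 0.802 in KO array 1, 3.89 in KO array 2 and 13.6 in KO array 3. By the Gapdh ratio KO arrays 2 and 3 thus stood apart from the other 4. Control probe sets of a second transcript, Actb, singled out KO array 3 only. There the Actb 3′/5′ ratio reached 21.0, whereas KO array 1 (1.58) and KO array 2 (1.87) fell inside the span of the wild-type arrays (2.04, 1.20, 1.84). The separation of KO array 2 therefore rests on Gapdh alone. Differences in KO array 1 alone against the wild-type arrays are given beside those over all arrays. Every value below is a linear signal scaled by the authors, and each difference is of log2(signal + 16), which understates changes of dim genes. In whole gland, fewer cells of a type and less RNA per cell cannot be told apart.

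Across the 28 measured members, none passed the limma test at an adjusted p of 0.05, and 5 had an unadjusted p below 0.05. Of all 10916 genes tested, 135 passed (1.24%), 123 of them higher (1.13%) and 12 lower (0.110%) in the KO, and 2384 had an unadjusted p below 0.05. The members' mean was higher in the KO for 10 and lower for 18, with a median log2 difference of -0.20 beside 0.06 over all genes tested. In KO array 1 alone against wild type, 18 members were higher and 10 lower, with a median of 0.14. In KO arrays 2 and 3 against wild type the median was -0.34. The negative median therefore came from the 2 arrays with high Gapdh ratios; the part of RNA quality in it was not tested.

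**Figure D1:**
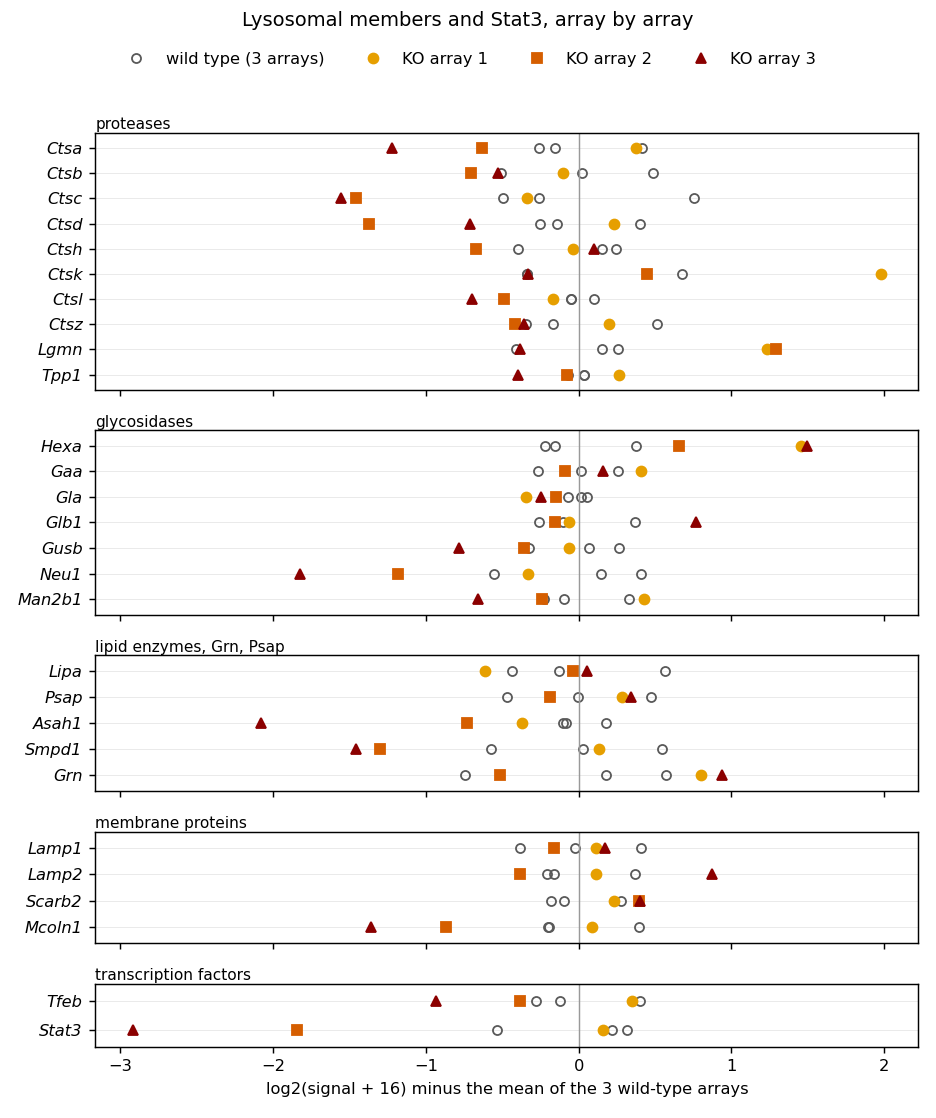
Each of the 28 measured members, grouped by role, with its log2(signal + 16) in each array minus the mean of the 3 wild-type arrays (x axis, log2 units). Open circles are wild-type arrays and filled symbols the 3 KO arrays; Hexa is the only member whose KO arrays all lie to the right of wild type, and Stat3 in KO array 3 lies farthest to the left.

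When same-numbered wild-type and KO animals were treated as pairs (a replicate block), Hexa rose and Ctsc and Neu1 fell at a limma adjusted p under 0.05. The labels do not state such a pairing. In the paired fit, 7.70% of all genes were called higher and 4.53% lower, so 1 and 2 of 28 members are shares near the background. Without KO array 1, Ctsc, Neu1, Smpd1 and Stat3 were called lower, 4 of 28 beside 5.07% of all genes. The KO and wild-type arrays did not overlap for 4 members. Hexa was higher in every KO array (16.7% of all genes were so), and Asah1, Ctsl and Gla were lower in every KO array (10.6% of all genes were so).

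Among the 10 proteases, 2 had a higher and 8 a lower KO mean, and the median log2 difference was -0.32. Ctsc, the dipeptidyl peptidase that activates granule serine proteases, read 7828, 3278.5 and 3867 in the wild-type arrays against 3653, 1672.5 and 1564.5 in the KO arrays. KO array 1 lay within the wild-type range and the other 2 KO arrays lay below it. The log2 difference was -1.12 ± 0.43 (limma adjusted p = 0.178), and each KO animal was lower than its same-numbered wild type, by -1.10, -0.96 and -1.30. Paired in this way the adjusted p was 0.0171, and without KO array 1 it was 0.0464. The difference in KO array 1 alone was -0.34. Its 2 dimmer probe sets, of which 1 was below the limit for dim signals, differed the other way, by 0.34 and 0.46.

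Ctsl and Ctsb encode the cysteine endopeptidases best known from the involuting gland. Ctsl read 6876, 6212 and 6193 in the wild-type arrays against 5706, 4570.3 and 3946 in the KO arrays. The groups did not overlap, yet the log2 difference of -0.45 ± 0.26 did not pass (limma adjusted p = 0.331). Ctsb read 12117, 8782 and 6076 in the wild-type arrays against 8045, 5298 and 5985 in the KO arrays, with overlap and a log2 difference of -0.45 ± 0.32 (adjusted p = 0.429). With KO array 1 alone the differences were -0.17 for Ctsl and -0.10 for Ctsb, and after quantile normalisation that of Ctsb was -0.05. A second Ctsb probe set read 7091.5, 6545 and 5013 in the wild-type arrays against 5641.5, 3249.6 and 566 in the KO arrays, a log2 difference of -1.48. Of the 5 Ctsb probe sets, 2 further ones above the limit for dim signals differed by 0.35 and 0.24. Within KO array 3, then, one Ctsb probe set stood near the lowest wild-type array and another far below it.

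Ctsd, the aspartic protease, read 4053.5, 2776 and 2574 in the wild-type arrays against 3612, 1177 and 1872.5 in the KO arrays. KO array 1 lay among the wild-type arrays, and the log2 difference over all arrays was -0.62 ± 0.41 (limma adjusted p = 0.394) and 0.23 in KO array 1. Ctsa, the carboxypeptidase that protects β-galactosidase and neuraminidase, read 1015, 630.1 and 679 in the wild-type arrays against 985, 482 and 316 in the KO arrays. The groups overlapped, and the differences were -0.49 over all arrays and 0.37 in KO array 1. Ctsh, an aminopeptidase, Ctsz, a carboxypeptidase, and Tpp1, a tripeptidyl peptidase, differed by -0.20, -0.19 and -0.07, each less than its standard error. The differences in KO array 1 were -0.04, 0.20 and 0.26.

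The 2 proteases with a higher KO mean were Ctsk, the collagen-degrading cathepsin known from osteoclasts, and Lgmn, the asparaginyl endopeptidase that processes other cathepsins. Ctsk read 393, 187 and 187 in the wild-type arrays against 995, 333 and 188 in the KO arrays. KO array 1 was above all wild-type arrays, KO array 2 between them and KO array 3 at the lower end, and the log2 difference of 0.70 ± 0.55 did not pass (limma adjusted p = 0.470). It was 1.98 in KO array 1 alone and 0.06 without that array. Lgmn read 194, 293 and 317 in the wild-type arrays against 639, 664.5 and 197 in the KO arrays, a difference of 0.71 ± 0.46 (adjusted p = 0.376). KO arrays 1 and 2 were above all wild-type arrays, KO array 3 was near the lowest wild-type value, and the difference in KO array 1 was 1.23.

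Of the 7 glycosidases, 3 had a higher and 4 a lower KO mean. Hexa, the α subunit of β-hexosaminidase, which degrades GM2 ganglioside, read 415, 282 and 269 in the wild-type arrays against 895, 507 and 919 in the KO arrays. All KO arrays were above all wild-type arrays, and the KO mean signal was 240.3% of the wild-type mean. The log2 difference was 1.20 ± 0.34 (limma adjusted p = 0.094), and 0.0335 with the pairing. It was 1.46 in KO array 1 and 1.07 without it, so it was present at both low and high Gapdh ratios.

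Neu1, the lysosomal sialidase, read 679.7, 565 and 341 in the wild-type arrays against 401, 215 and 132 in the KO arrays. KO array 1 lay within the wild-type range and the other KO arrays below it. The log2 difference was -1.11 ± 0.42 (limma adjusted p = 0.176), 0.0357 with the pairing and 0.0399 without KO array 1, while KO array 1 alone differed by -0.33. Neu1 is held in a complex with Ctsa and Glb1, and Glb1, β-galactosidase, read 328, 207 and 232 in the wild-type arrays against 239, 223 and 438 in the KO arrays, a difference of 0.18 ± 0.35 that was -0.07 in KO array 1. The 3 genes of that complex therefore had differences of -1.11, -0.49 and 0.18, of which only that of Neu1 passed the paired test.

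Gla, α-galactosidase A, read 70.5, 68.2 and 63.1 in the wild-type arrays against 49.5, 59.1 and 54.1 in the KO arrays. The groups did not overlap, but the log2 difference of -0.25 ± 0.26 was no larger than its error (limma adjusted p = 0.601), and it was -0.35 in KO array 1. Gusb, β-glucuronidase, differed by -0.40 ± 0.32, Gaa, which degrades glycogen, by 0.16 ± 0.30 and Man2b1, the lysosomal α-mannosidase, by -0.16 ± 0.35. None of these 3 passed, and their groups overlapped. Their differences in KO array 1 were -0.06, 0.41 and 0.42. A second Gusb probe set read 353.5, 295 and 221 in the wild-type arrays against 227, 80.2 and 21.6 in the KO arrays, a difference of -1.65, and the mean of both probe sets differed by -1.03.

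Among the 5 genes of lipid breakdown and its cofactors, 2 had a higher and 3 a lower KO mean. Asah1, acid ceramidase, read 2557, 2101 and 2129.8 in the wild-type arrays against 1740.2, 1349.6 and 521 in the KO arrays. Every KO array was below every wild-type array, with KO array 3 farthest, and the log2 difference was -1.06 ± 0.42 (limma adjusted p = 0.192). Smpd1, acid sphingomyelinase, which makes ceramide, read 762, 528 and 343 in the wild-type arrays against 568, 201 and 178.5 in the KO arrays, a difference of -0.88 ± 0.47 (adjusted p = 0.292). It was 0.13 in KO array 1 alone, and -1.38 without that array (adjusted p = 0.0486). The Smpd1 difference thus lay in KO arrays 2 and 3, while Asah1 was lower in KO array 1 as well, by -0.37.

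Lipa, the acid lipase that splits cholesteryl esters and triglycerides, read 5489, 3381 and 2737 in the wild-type arrays against 2416, 3617 and 3845 in the KO arrays. The groups overlapped, and the log2 difference was -0.20 ± 0.34, and -0.61 in KO array 1. Its 2 other probe sets differed by -0.18 and -1.27. Psap, the precursor of the sphingolipid activators, differed by 0.14 ± 0.32 with its chosen probe set, and by 0.28 in KO array 1. A second Psap probe set read 4371, 4120.0 and 2697 in the wild-type arrays against 4152, 1769 and 380.3 in the KO arrays, a difference of -1.35. Grn, progranulin, read 3268, 1303 and 2483 in the wild-type arrays against 3845, 1529 and 4218 in the KO arrays, a difference of 0.41 ± 0.46 within overlapping groups, and 0.80 in KO array 1.

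Of the 4 measured membrane proteins, 3 had a higher and 1 a lower KO mean, and none passed. Lamp1 and Lamp2, the abundant glycoproteins of the limiting membrane, differed by 0.04 ± 0.30 and 0.20 ± 0.36, and in KO array 1 both differed by 0.11. Scarb2, which carries glucocerebrosidase to lysosomes, read 1007, 948 and 1312 in the wild-type arrays against 1271, 1421 and 1427 in the KO arrays, a log2 difference of 0.34 ± 0.28 (limma adjusted p = 0.476) and 0.23 in KO array 1. Its second probe set differed by 0.25, in the same direction. Mcoln1, the calcium channel of the lysosomal membrane, read 340.3, 219.7 and 221 in the wild-type arrays against 271, 132.5 and 89.5 in the KO arrays, a difference of -0.71 ± 0.40 (adjusted p = 0.316). KO array 1 was within the wild-type range, with a difference of 0.08, and the second Mcoln1 probe set differed by 0.34.

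**Figure D2:**
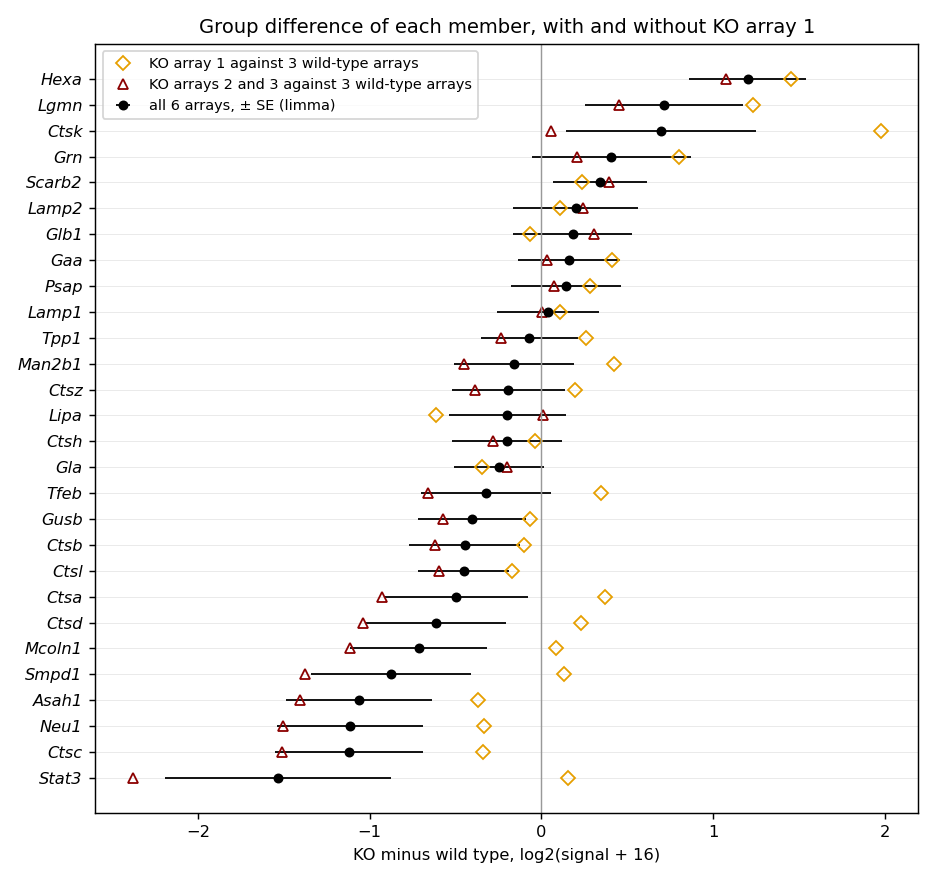
KO minus wild type for each measured member in log2(signal + 16) units, ordered by the difference over all 6 arrays (black points, bars ± SE from limma). Open diamonds use KO array 1 alone and open triangles KO arrays 2 and 3; Stat3 has the widest gap, 0.16 against -2.38, while for Hexa they are 1.46 and 1.07.

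The 4 members with TCACGTGA in the printed promoter windows, Ctsa, Ctsd, Gla and Mcoln1, had log2 differences of -0.49, -0.62, -0.25 and -0.71. None passed the test. For Ctsa, Ctsd and Mcoln1 the sign was positive in KO array 1. Lamp1, with 4 E-boxes in its stretch, differed by 0.04, and Ctsc, with the Stat-type match, by -1.12. Tfeb, which binds such E-boxes, read 153, 101 and 89.6 in the wild-type arrays against 147, 81.9 and 51.1 in the KO arrays, a difference of -0.32 ± 0.38 (limma adjusted p = 0.632) that was 0.35 in KO array 1.

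Stat3 read 1784, 1907.5 and 1054 in the wild-type arrays against 1710.2, 416 and 189 in the KO arrays with the probe set chosen for it. KO array 1 lay within the wild-type range, and KO arrays 2 and 3 lay below it. The log2 difference of -1.53 ± 0.66 did not pass (limma adjusted p = 0.212, and 0.0537 with the pairing). In KO array 1 alone it was 0.16, with the Gapdh ratio as a covariate -0.11, and without KO array 1 -2.38 (adjusted p = 0.0178). The Stat3 difference thus lay in the arrays with high Gapdh ratios; the part of RNA quality in it was not tested.

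The other 3 Stat3 probe sets differed from the chosen one and from each other. The second probe set read 809, 1086 and 1463 in the wild-type arrays against 879, 1056 and 383.5 in the KO arrays, so only KO array 3 was below wild type, and it differed by -0.60. The third probe set read 43.1, 69.2 and 92.3 in the wild-type arrays against 41.0, 96.7 and 157 in the KO arrays, a difference of 0.34. The fourth read 83.2, 76.2 and 75.5 in the wild-type arrays against 62.3, 39.4 and 33.2 in the KO arrays, a difference of -0.66 with no overlap. In KO array 3, 3 of the 4 probe sets lay below every wild-type array and 1 lay above them.

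**Figure D3:**
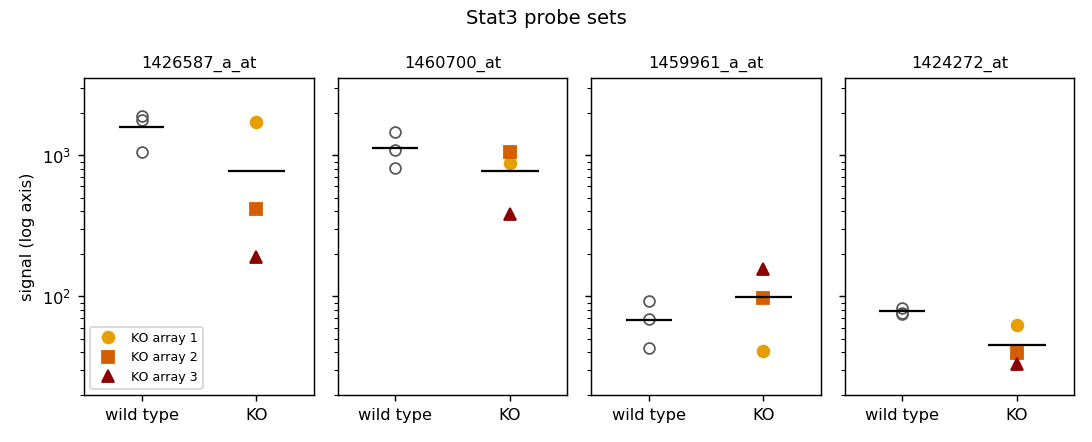
Signal of the 4 Stat3 probe sets (log axis) in wild-type (open circles) and KO arrays (filled symbols), with group means as bars; levels are compared within a panel only. The probe set at the left, used for the gene, reads 1710.2 in KO array 1 and 189 in KO array 3, while the third panel reads 41.0 and 157 in the same arrays.

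Several members showed such disagreement between probe sets. Of the 28 members, 20 had more than 1 probe set, and for 16 at least 2 probe sets were above the limit for dim signals. The median spread between a member's probe sets, in log2 difference from wild type, was 0.254 in KO array 1, 0.918 in KO array 2 and 1.877 in KO array 3. Over all 4429 such genes it was 0.373, 0.648 and 1.549, so the same order of arrays held across the array. The probe sets of a gene had KO differences of opposite sign in 8 of 16 members and in 2185 of 4429 genes. Other probe sets of Ctsa, Ctsh, Gaa, Smpd1 and Tpp1 differed by -0.53, -0.01, 0.40, -0.91 and 0.86 over all arrays, those of Ctsz by -0.70 and 0.03, those of Grn by 0.17 and 0.38, and those of Lamp2 by 0.14, 0.03 and -0.43. The spread was thus larger in the KO arrays with a higher Gapdh ratio in both sets of genes; the cause was not tested.

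**Figure D4:**
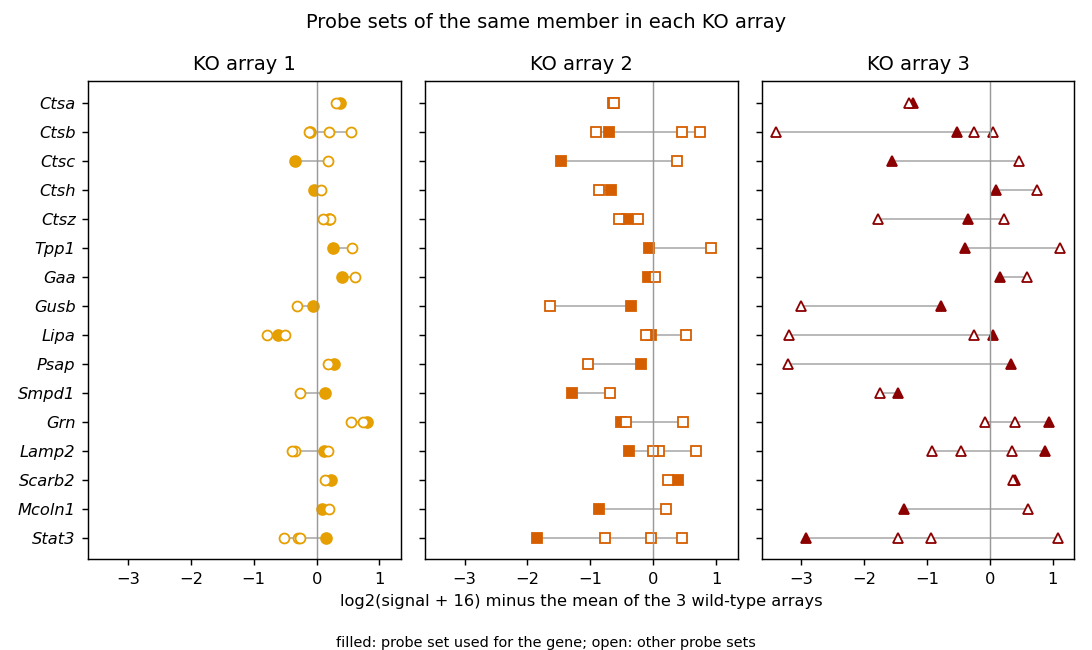
Log2(signal + 16) minus the wild-type mean for each probe set of the 16 members with at least 2 above the limit for dim signals, in 1 panel per KO array; filled symbols are the probe sets used and open ones the others. Lines join the lowest and highest probe set of a gene, with a median length of 0.254, 0.918 and 1.877 in KO arrays 1, 2 and 3.

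The wider lysosomal pathway was read from lists of other genes. Of 29 other hydrolases and activators tested, 18 had a higher and 11 a lower KO mean, none passed, and the median log2 difference was 0.25. Of the same genes, 21 were higher and 8 lower in KO array 1, with a median of 0.32. Ggh, the lysosomal γ-glutamyl hydrolase, read 147, 143 and 155 in the wild-type arrays against 405, 361 and 629.7 in the KO arrays, a difference of 1.51 ± 0.30 (limma adjusted p = 0.0501). Ctso, a cysteine cathepsin, differed by 1.07 ± 0.30 and Gm2a, the activator that presents GM2 ganglioside to β-hexosaminidase, by -1.33 ± 0.39. These 3 differed in KO array 1 by 1.36, 0.74 and -0.67, and a second Gm2a probe set differed by -3.02 over all arrays. With the pairing Ggh and Ctso rose (limma adjusted p = 0.0169 and 0.0433) and Gm2a fell (0.0125). These calls, 2 and 1 of 29, are shares near the 7.70% and 4.53% of all genes called higher and lower. Hexa and Gm2a, whose products act on the same lipid, therefore differed in opposite directions, 1.20 against -1.33, and for both genes no KO array overlapped with wild type. Of the 29, 8 were higher in every KO array and 1 was lower in every KO array, where 16.7% and 10.6% of all genes were.

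Of 24 other membrane proteins and transporters, 9 had a higher and 15 a lower KO mean and none passed. The balance in KO array 1 alone was the other way, 14 higher and 10 lower, with a median log2 difference of 0.12 beside -0.06 over all arrays. Slc11a2, an iron transporter, read 308, 334 and 280.0 in the wild-type arrays against 185, 135 and 89.6 in the KO arrays, a log2 difference of -1.13 ± 0.32 (limma adjusted p = 0.0939, and 0.0365 with the pairing) that was -0.69 in KO array 1. The peptide transporter gene Abcb9 differed by -1.01 ± 0.34 and Mfsd8, mutated in a neuronal storage disease, by 0.87 ± 0.34, and by -0.56 and 0.54 in KO array 1. A second Mfsd8 probe set above the limit for dim signals differed by -0.66, in the other direction.

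The 14 mannose 6-phosphate sorting genes had 3 higher and 11 lower means, none passing, and 6 higher and 8 lower in KO array 1. Igf2r, the cation-independent mannose 6-phosphate receptor, was lower in every KO array with a log2 difference of -0.69 ± 0.30 (limma adjusted p = 0.214), and it was -0.66 in KO array 1; a second Igf2r probe set differed by -1.98. The clathrin-adaptor genes Ap1s1 and Gga2 differed by -1.14 ± 0.42 and 0.39 ± 0.33, and by -0.14 and 0.82 in KO array 1. The 15 V-ATPase subunits, parts of the proton pump, had 2 higher and 13 lower means, from -0.68 to 0.02, and none passed in either fit. Their counts in KO array 1 were 7 higher and 8 lower. Atp6v0a1, Atp6v0a2 and Atp6v1d differed by -0.68, -0.57 and -0.50, and by -0.19, -0.39 and -0.59 in KO array 1. Their other probe sets differed by -0.57, -1.62 and -1.04 for Atp6v0a1, -1.42 and -1.72 for Atp6v0a2, and 0.19 and -0.16 for Atp6v1d.

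The TFEB family and the nutrient-sensing complex on the lysosome were represented by 14 genes besides Tfeb, 8 higher and 6 lower, none passing; in KO array 1 the counts were 9 and 5, and the median was 0.04 beside 0.29. Mitf, a relative of Tfeb, read 140.4, 99.4 and 109 in the wild-type arrays against 234, 222.5 and 315 in the KO arrays, a log2 difference of 1.05 ± 0.29 (limma adjusted p = 0.0936, and 0.0423 with the pairing) that was 0.93 in KO array 1. Tfe3, another relative, and Rraga, a GTPase of nutrient sensing, differed by -0.90 ± 0.38 and -0.79 ± 0.37, and by -0.43 and -0.57 in KO array 1; both were lower in every KO array.

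Of 24 autophagy genes, 8 were higher and 16 lower, with a median log2 difference of -0.21, and none passed. The counts in KO array 1 were 10 and 14 and the median -0.10. The smallest p was that of Atg12, a ubiquitin-like conjugation factor, which read 155, 98.7 and 99 in the wild-type arrays against 182, 303 and 317 in the KO arrays. Every KO array was higher, and the difference was 1.07 ± 0.33 (limma adjusted p = 0.112) and 0.59 in KO array 1, while a dimmer Atg12 probe set differed by -0.44. With the pairing Vps18 and Gabarap fell, 2 of 24 beside 4.53% of all genes. Vps18, of the complexes that tether membranes to the lysosome, differed by -1.28 ± 0.45 and by -0.49 in KO array 1, and its second probe set by -0.44. Gabarap, which coats autophagosomes, read 6559.5, 5606 and 4321.5 in the wild-type arrays against 4756, 1654 and 431 in the KO arrays, a difference of -1.83 ± 0.69 that was -0.19 in KO array 1.

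Of 13 listed cathepsin inhibitors, 6 were bright enough to be tested, by a limit set on the mean over all arrays. All 6 had a higher KO mean, none passed, and the median log2 difference was 1.09. In KO array 1 the median was 1.004, with 5 higher and 1 lower. Serpinb6a, an intracellular serpin, read 418, 448 and 530.2 in the wild-type arrays against 1206, 1080.0 and 2349.5 in the KO arrays, a difference of 1.62 ± 0.35 (limma adjusted p = 0.0594). Serpinb1a, a serpin of neutrophil proteases, read 14.7, 23.4 and 26.8 in the wild-type arrays against 64.6, 102 and 194 in the KO arrays, a difference of 1.76 ± 0.38 (adjusted p = 0.0594). Both rose with the pairing (limma adjusted p = 0.0151 and 0.0136), 2 of 6 beside 7.70% of all genes, and in both the groups did not overlap. In KO array 1 the differences were 1.35 and 1.11. All wild-type values of Serpinb1a were under the limit for dim signals, so it was tested only because of its KO values. The p-values, higher mean and lack of overlap of Serpinb1a are therefore no support for a rise. The count of 6 with a higher mean and both medians include it, and are to be read with that limit. Serpina3n, an acute-phase serpin, read 73.1, 158 and 195 in the wild-type arrays against 1006, 368 and 195 in the KO arrays, a difference of 1.55 ± 0.56 that was 0.94 without KO array 1. Serpina3g, the serpin best known as a Stat3-lowered inhibitor in involution, was not analysed here.

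Upstream of Stat3, 8 of 17 listed cytokines, receptors and kinases were bright enough to be tested, and 1 passed. Osmr, the oncostatin M receptor, read 151, 149 and 249 in the wild-type arrays against 496, 682.5 and 1333 in the KO arrays, and rose by 2.01 ± 0.40 on the log2 scale (limma adjusted p = 0.0487). Every KO array was above every wild-type array; a second, dimmer Osmr probe set differed by -0.02, with 2.2 in KO array 3. The chosen Osmr probe set differed by 1.40 in KO array 1. Lifr, the receptor for the involution cytokine Lif, read 426, 411 and 451 in the wild-type arrays against 648, 1180.1 and 1376 in the KO arrays, a difference of 1.22 ± 0.34 (adjusted p = 0.0916). A second Lifr probe set read 297.5, 234.5 and 287.5 in the wild-type arrays against 207, 166 and 130.3 in the KO arrays, lower in every KO array, and differed by -0.67. Il6st, the shared signalling receptor, differed by 1.08 ± 0.35 and Egfr by 1.70 ± 0.37, also with no overlap. Lifr, Il6st and Egfr differed in KO array 1 by 0.58, 0.44 and 1.19.

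The dimmer Il6st probe sets went the other way, by -0.67, -0.20 and -1.36, and those of Egfr above the limit for dim signals differed by -0.68, 1.42, 0.0033 and -0.58. With the pairing Osmr, Egfr, Lifr and Il6st rose and Il6ra, named here after its values were seen, fell; it differed by -1.17 ± 0.39 (limma adjusted p = 0.134, and 0.0335 with the pairing), and by -0.40 in KO array 1. The paired calls were 4 of 8 higher and 1 of 8 lower, beside 7.70% and 4.53% of all genes. The rises of these receptors thus hold for the probe sets used, not for every probe set of the genes. Jak1, the kinase of these receptors, differed by -0.46 ± 0.61 and by 0.17 in KO array 1, its other probe sets by 0.36 and -1.19, and Lif was too dim to be tested.

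Of 24 tested genes reported as Stat3 targets or regulators, 8 had a higher and 16 a lower KO mean, and the median of their log2 differences was -0.43. Against wild type, KO array 1 alone had 10 higher and 14 lower, and a median of -0.09. The 2 that passed were both higher. Hp, the acute-phase protein haptoglobin, read 202, 256 and 277 in the wild-type arrays against 1717, 735 and 1637 in the KO arrays, and rose by 2.32 ± 0.37 (limma adjusted p = 0.0356). Igfbp5, an IGF-binding protein of the involuting gland, read 1758, 2464 and 2229 in the wild-type arrays against 5882, 8453 and 5953 in the KO arrays, and rose by 1.64 ± 0.29 (adjusted p = 0.0446). Its dimmer probe set differed by -1.02, in the other direction. Hp differed by 2.74 and Igfbp5 by 1.46 in KO array 1.

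With the pairing, 3 of these 24 rose and 5 fell (7.70% and 4.53% of all genes did so). Those that rose were Hp, Igfbp5 and Socs3, the feedback inhibitor of Stat3 signalling, which read 54.1, 205 and 226 in the wild-type arrays against 237, 352 and 509 in the KO arrays, a log2 difference of 1.24 ± 0.49 (limma adjusted p = 0.0352 with the pairing, 0.191 without). The other Socs3 probe sets differed by 0.78 and 0.60, with overlapping groups. Pim1, a kinase induced by cytokine receptors, read 584, 428 and 738 in the wild-type arrays against 254, 185.5 and 157 in the KO arrays. This was a difference of -1.47 ± 0.32 (limma adjusted p = 0.0219 with the pairing, 0.0605 without). The other 4 that fell were Lbp, Saa1, Saa2 and Lcn2, secreted acute-phase and defence proteins named here after their values were seen, with differences of -1.78, -1.20, -1.21 and -0.83. Their differences in KO array 1 were -0.62, -0.33, -0.07 and -0.40, beside 0.71 for Socs3 and -1.12 for Pim1, whose second probe set differed by -2.02 over all arrays. Targets of the same factor thus differed in both directions. Cebpd, a factor known to follow Stat3 in involution, differed by -0.28 ± 0.41, and by -0.47 in KO array 1.

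**Figure D5:**
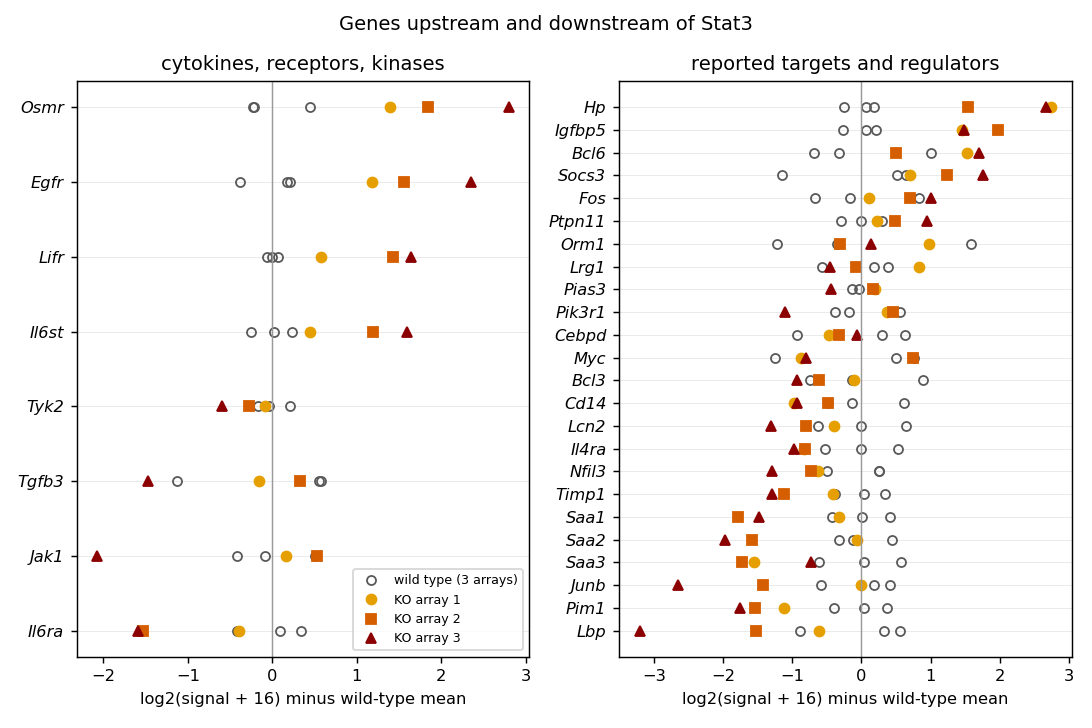
Log2(signal + 16) minus the wild-type mean in each array for 8 genes upstream of Stat3 (left) and 24 reported targets and regulators (right), ordered by the KO difference; open circles are wild-type arrays and filled symbols KO arrays. With the probe sets used, Osmr, Egfr, Lifr and Il6st at the upper left, 4 of 8, are higher in every KO array. At the right Hp, Igfbp5 and Socs3, 3 of 24, are higher in every KO array. A further 6 of 24, Pim1 among them, are lower in every KO array. Of all genes tested, 16.7% were higher and 10.6% lower in every KO array.

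Markers of other cell types were read beside these results. Of 19 macrophage and myeloid markers tested, 16 had a higher KO mean and 2 passed, Cd163 (log2 difference 1.93 ± 0.30, limma adjusted p = 0.0356) and Mrc1 (1.67 ± 0.29, 0.0446), and 9 rose with the pairing. Of all genes, 1.13% passed as higher and 7.70% rose with the pairing. In KO array 1 all 19 markers were higher, with a median log2 difference of 1.33 beside 0.97 over all arrays. The summed signal of the list was 7199 to 10635 in wild type and 13036 to 21502 in the KO. Csf1r, the macrophage growth factor receptor, read 1477, 686 and 1077 in the wild-type arrays against 2934, 1608 and 3816 in the KO arrays, Lyz2 differed by 1.10 ± 0.33 and Cd68 by 0.76 ± 0.42. The other Csf1r probe sets differed by 1.39 and -0.15. Ptprc, the pan-leukocyte CD45 gene, differed by 1.72 ± 0.37 and Adgre1, which encodes F4/80, by 0.01 ± 0.41. Macrophages are rich in lysosomes, and their part in the values of Hexa, Ctsk, Lgmn and the other members was not tested.

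Of 12 fibroblast markers tested, 11 had a higher KO mean and 3 passed, Fap, Dpt and Pdgfra, and 7 rose with the pairing. Of all genes, 1.13% passed as higher and 7.70% rose with the pairing. In KO array 1 all 12 were higher, with a median log2 difference of 1.32. The list's summed signal was 12775 to 20090.5 in wild type and 23972.5 to 38200.3 in the KO. A second Pdgfra probe set above the limit for dim signals differed by -0.24. All 10 alveolar secretory markers, milk protein genes among them, had a lower KO mean with a median log2 difference of -0.76, and of -0.39 in KO array 1. Xdh, Btn1a1 and Olah, of milk fat secretion and synthesis, differed by -1.77, -1.005 and -1.11. None of the 10 passed, 6 fell with the pairing (4.53% of all genes did so), and their summed signal was 89699 to 248606.5 in wild type and 63276 to 111532.5 in the KO. Of 11 luminal epithelial markers, which like the milk genes are expected of mammary gland, 5 were higher and 6 lower and none passed. Among adipocyte, basal, muscle, erythroid and lymphocyte markers none passed, and 1 of 10 endothelial markers, Vwf, passed as higher. All 8 muscle markers had a higher KO mean, with a median log2 difference of 1.39. Each had overlapping groups, and 4 rose with the pairing (7.70% of all genes did so). At least 1 of these 4 had a wild-type mean log2 value under the limit for dim signals. It was tested only because of its KO values, so its higher mean and paired call are no support for a rise. Of 9 adipocyte markers 7 were higher (median 0.90), and of 8 lymphocyte markers 7 were higher (0.68). With the pairing 3 of 9 adipocyte and 3 of 8 lymphocyte markers rose, beside 7.70% of all genes. Of 10 basal markers 4 were higher and 6 lower (-0.30), and of 6 listed erythroid genes 1 was tested. No marker of any of these lists was at 0, but neither was any of the 10916 genes tested. A value above 0 therefore does not show that a cell type was present. The part of these cell types in the members' values was not tested.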

How the data were processed

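The deposited table holds linear signal intensity values of 45101 probe sets, made by the authors; per the submitters' processing notes MAS5 and affy were used (versions not named there). Each array's mean was 150 after trimming 2% at each end. No probe-set coordinates or genome build of the arrays were used here. The 34945 probe sets with 1 gene symbol in the platform annotation were kept, and the probe set with the highest mean log2 value over all 6 arrays stood for its gene.

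Values were taken as log2(signal + 16). Genes under the 40th percentile of the mean (a signal of about 43.8) were left out, 7277 of 18193, and 10916 were tested with limma 3.58.1 in R 4.3.3 (lmFit, eBayes with an intensity trend). Benjamini-Hochberg adjustment ran over all of them at a threshold of 0.05. With 3 arrays per group, the number of arrays limits the precision. Same-numbered animals deviated together (correlations 0.459, 0.336 and 0.291), where differently numbered ones had correlations from -0.438 to 0.149. The numbers were therefore treated as pairs in a replicate block, as an alternative fit. The labels do not state a pairing, and the correlations come from the same values that were tested. The paired p-values are thus given beside the unpaired ones and do not replace them. The members and all lists were chosen with earlier results of these data known. The rule for names was all members, the 3 genes of smallest p in each other list (of adipocyte, luminal, basal, endothelial, muscle, erythroid and lymphocyte markers only those that passed are named), and Socs3, Lif, Lifr, Il6st, Osmr, Jak1, Cebpd, Serpina3g, Cd68, Csf1r, Adgre1, Lyz2 and Elf5; genes outside this rule are marked. The 19 alternatives covered scaling, pseudocount, filter, probe-set choice, trend, block, the Gapdh ratio and each array left out.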

Additional observations from a re-analysis of the deposited data

How the results depend on the processing

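Over 530 member differences under 19 alternatives, 481 kept their direction and side of the threshold, 7 newly passed and 42 changed sign, none of them passing in either fit; 10 members never changed sign. With the replicate block 1 member passed as higher and 2 as lower. With KO array 1 and the wild-type arrays only, the median of the lysosomal members was 0.13, Ctsa 0.37, Ctsd 0.23, Ctsz 0.20, Tpp1 0.26, Glb1 -0.065, Man2b1 0.42, Smpd1 0.13, Mcoln1 0.084, Tfeb 0.35 and Stat3 0.16. With the Gapdh ratio as a covariate Ctsa was 0.22, Ctsz 0.035, Tpp1 0.23, Glb1 -0.21, Man2b1 0.32, Lamp1 -0.0066, Lamp2 -0.11 and Tfeb 0.24. Lamp1 was -0.068 after median centring. With the mean of probe sets Ctsl was 0.15, Tpp1 0.40, Psap -0.60 and Lamp2 -0.016. With the dimmest probe set Ctsb was 0.24, Ctsc 0.34, Ctsz 0.033, Tpp1 0.86, Psap -1.35, Lamp2 -0.43 and Mcoln1 0.34. Leaving out each array in turn, the count of members called lower ranged from 0 to 4 (4 without KO array 1), and the log2 difference ranged from -2.38 to -0.84 for Stat3, -0.39 to 0.064 for Ctsz, -0.45 to 0.092 for Man2b1, -0.42 to 0.085 for Lipa, -0.091 to 0.38 for Psap, -0.15 to 0.24 for Lamp1, -0.40 to 0.032 for Ctsh, -0.24 to 0.094 for Tpp1, -0.11 to 0.36 for Glb1 and -0.14 to 0.49 for Lamp2. Among members that kept their sign it was 0.035 to 0.87 for Grn (lowest without wild-type array 2), -1.04 to -0.24 for Ctsd, -0.93 to -0.13 for Ctsa, -0.70 to -0.20 for Ctsb, -1.51 to -0.74 for Ctsc, 0.057 to 1.21 for Ctsk, 0.425 to 1.26 for Lgmn, -0.57 to -0.21 for Gusb, -1.41 to -0.55 for Asah1 (-0.55 without KO array 3), -1.38 to -0.585 for Smpd1, -1.11 to -0.39 for Mcoln1 and -0.66 to -0.018 for Tfeb. With the mean of probe sets Gusb was -1.03, Ctsc -0.105, Mcoln1 -0.12 and Stat3 -0.61. The causes were not tested. Over all genes, 123 higher and 12 lower became 841 and 494 with the block, 653 and 553 without KO array 1, 161 and 20 after quantile normalisation, 11 and 2 after median centring, which moved the median of all genes from 0.06 to -0.04, 81 and 4 with a pseudocount of 1, 53 and 3 without the filter, and 61 and 8 with the mean of probe sets. None passed with the Gapdh covariate (1112 at an unadjusted limma p below 0.05), with the dimmest probe set (2171) or without wild-type array 2 (1553). Leaving out wild-type array 1 or 3, or KO array 2 or 3, at most 9 passed. Other than Hexa, Ctsc and Neu1, the block changed no member's call.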
